A study of Mus musculus with 7 samples.

Results

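Long stretches of mouse chromosome without a CTCF peak were examined in neural progenitor cells (NPCs) for the cohesin subunit Smc1. Each stretch ran from the end of one CTCF peak to the start of the next on the same autosome, 1 to 19, and was kept when it was at least 300 kb long. This gave 1254 intervals out of 41890 between neighbouring CTCF peaks, or 2.99% of them. They covered 783 Mb, which is 32.5% of the 2408 Mb between the first and the last CTCF peak of each autosome. The length of the intervals and the absence of CTCF peaks in them were therefore set by the choice, while Smc1 was not used in it.

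CTCF is a zinc-finger protein that binds a long DNA motif and insulates neighbouring parts of the genome from each other. Cohesin is a ring-shaped complex, of which Smc1 is a core ATPase subunit. It is loaded onto chromatin, extrudes loops and is often held at bound CTCF. Cohesin also lies at promoters and enhancers without CTCF. Wide stretches with little CTCF are often poor in genes, although no annotation on mm9, the build of the peak positions, was used here and no gene was placed in an interval.

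The series compared V6.5 mouse embryonic stem (ES) cells, male cells from a 129SvJae x C57BL/6 cross, with NPCs derived from them. The NPCs came from embryoid bodies kept for 4 days without LIF, then 5 to 7 days of selection in serum-free ITSFn medium and 2 to 4 days of growth with Fgf2, and were fixed in 1% formaldehyde. Chromatin of these cells was immunoprecipitated with an antibody to CTCF or to Smc1, with 1 library each, so no spread between replicates could be measured for any value. The lists hold no RNA, and the labelled cell type was not checked against its markers. ES cells had no peak list among the files used, so the intervals describe NPCs.

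The CTCF list held 42893 peaks, 41909 of them on autosomes, and the Smc1 list 37991 peaks, 37113 of them on autosomes. On the autosomes 76.6% of Smc1 peaks overlapped a CTCF peak by at least 1 bp. The remaining 8674 are called Smc1-only peaks below. A peak was counted in the interval that held its midpoint. Read depth is unknown, so an interval without a Smc1 peak is one where no peak passed the authors' threshold, and binding below it was not measured.

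Smc1 peaks were sparse in the long intervals, which held 1203 of them, 3.24% of the autosomal total. The density was 1.54 Smc1 peaks per Mb (exact 95% Poisson interval 1.45 to 1.63), against 22.1 per Mb (21.9 to 22.3) in the rest of the autosomal span. The ratio was 0.0695 (0.0656 to 0.0737). Much of this gap is fixed by the choice of intervals, because a Smc1 peak that sits on a CTCF peak cannot lie between CTCF peaks. Only 13 of the 1203 overlapped the edge of a bordering CTCF peak.

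The Smc1-only peaks could fall in an interval of any length and give the fairer comparison. The long intervals held 1190 of them, 1.52 per Mb (1.43 to 1.61), and intervals under 300 kb held 7477 over 1606 Mb, 4.66 per Mb (4.55 to 4.76). The ratio was 0.326 (exact 95% interval 0.307 to 0.347). At the density of the shorter intervals the long ones would have held 3645 Smc1-only peaks. These intervals cover counting error only. Smc1 peaks per long interval had a mean of 0.959 and a variance of 2.92, with no allowance for differing interval lengths. The variance does not by itself measure uneven spread. Some peaks also stood in groups, described below, so that the true uncertainty is wider. Lengths ran from peak to peak and were not corrected for assembly gaps or for sequence to which short reads cannot be assigned, and the part of these in the densities was not tested.

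The lower density was seen in each chromosome. The ratio of Smc1-only density, long over shorter intervals, was under 1 in 19 of 19 autosomes, and the upper bound of its interval was under 1 in 19. Chromosome 17 had the lowest ratio, 0.116 (0.0655 to 0.191), with 16 Smc1-only peaks in 28.4 Mb of long intervals. Chromosome 7 was next, with 0.149 (0.103 to 0.210) and 36 peaks in 54.6 Mb. Chromosomes 10 and 13 had the highest ratios, 0.536 (0.422 to 0.676) and 0.489 (0.383 to 0.619). The median over autosomes was 0.327. Chromosome 8 stood apart in its shorter intervals, with 6.95 Smc1-only peaks per Mb, while the other autosomes lay between 3.94 and 4.86. Its ratio was 0.308 (0.242 to 0.388). Autosomes also differed in how much of their span the long intervals took. The share was lowest on chromosome 11, at 16.5%, and on chromosome 19, at 22.3%. It was highest on chromosome 3, at 39.5%, and on chromosome 12, at 38.7%.

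**Figure D1:**
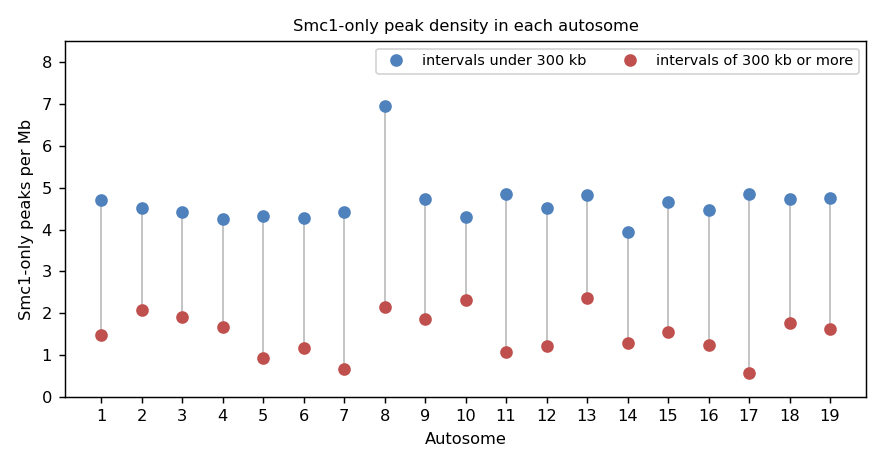
Smc1-only peaks per Mb (vertical axis) in each autosome (horizontal axis), for intervals of 300 kb or more (red) and under 300 kb (blue); each point is 1 autosome of 1 pair of libraries. The red points run from 0.563 to 2.36 and lie under the blue points, from 3.94 to 6.95, in 19 of 19 autosomes.

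The threshold of 300 kb marked no step of its own. Smc1-only density fell from 8.57 per Mb in intervals under 10 kb to 4.25 per Mb (4.07 to 4.45) at 100 to 200 kb and 3.58 (3.35 to 3.82) at 200 to 300 kb. It continued to fall above the threshold, to 2.52 (2.33 to 2.72) at 300 to 500 kb, 1.47 (1.34 to 1.62) at 500 to 1000 kb and 0.464 (0.381 to 0.560) over 1000 kb. The 138 intervals over 1000 kb held 108 Smc1-only peaks in 233 Mb. The 691 intervals of 300 to 500 kb held 654 in 260 Mb, a similar length of DNA.

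**Figure D2:**
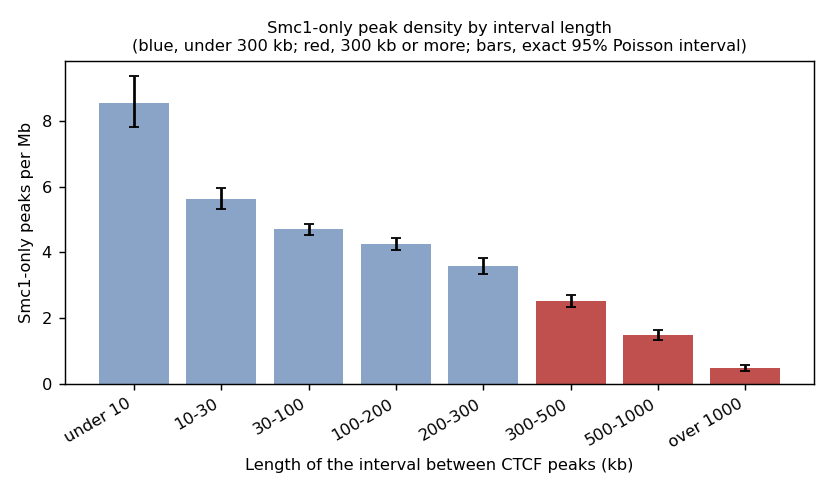
Smc1-only peaks per Mb (vertical axis) by the length of the interval between CTCF peaks in kb (horizontal axis); bars are densities over all autosomes and error bars exact 95% Poisson intervals. Density falls from 8.57 in the shortest class to 0.464 in the longest, through the threshold between the blue and the red bars.

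At the threshold, the 5 shortest intervals kept ran from 300.2 to 300.6 kb and held 0, 0, 0, 2 and 4 Smc1 peaks. The 5 longest intervals left out ran from 299.4 to 299.9 kb and held 0, 0, 2, 0 and 0. Intervals on either side of the threshold were thus alike in length and included empty and occupied ones. The interval with 4 peaks was chr10:95020280-95320831, and its highest Smc1 peak, chr10:95170711-95171162, scored 152 and lay 149.9 kb from the nearest CTCF peak. Scores here are those of the authors' peak caller and rise as its p-value falls.

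Smc1-only peaks were denser near CTCF than far from it, in long and in shorter intervals. Within 5 kb of a bordering CTCF peak the long intervals held 88 Smc1-only peaks, 7.02 per Mb (5.63 to 8.65), and the shorter ones 7.52 per Mb (7.23 to 7.82). The ratio was 0.933 (0.746 to 1.15), an interval that includes 1. Intervals of 100 to 300 kb alone held more there, 9.80 per Mb (8.90 to 10.8), above the counting interval of the long ones. At 5 to 10 kb the ratio was 0.743 (0.537 to 1.00), and at 10 to 20 kb it was 0.663 (0.513 to 0.845). Intervals of 100 to 300 kb alone held 4.95 per Mb at 5 to 10 kb and 4.03 at 10 to 20 kb. Farther away the ratio to all shorter intervals was lower, but the intervals compared change with distance. Positions 50 kb or more from CTCF occur only in intervals of at least 100 kb, so the ratios near and far do not share a comparator. At 20 to 50 kb the long intervals held 1.91 per Mb and the shorter ones 3.74, a ratio of 0.512 (0.429 to 0.607). Those of 100 to 300 kb held 3.65 there. At 50 to 100 kb the values were 1.69 and 3.31, a ratio of 0.511 (0.436 to 0.595). At 100 to 150 kb they were 1.84 and 3.19, a ratio of 0.578 (0.467 to 0.719). The lower density of the long intervals was thus also present between positions at the same distance from CTCF, at a ratio of 0.537 (0.478 to 0.602) over the whole range of 50 to 150 kb. Positions more than 150 kb from CTCF occur only in the long intervals, where they held 402 Smc1-only peaks at 0.988 per Mb.

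Among the long intervals, density from 50 to 150 kb from CTCF was lowest in the longest class, an order that did not hold at 5 to 50 kb. At 50 to 100 kb from CTCF it was 1.94 per Mb (1.62 to 2.30) in intervals of 300 to 500 kb, 1.62 (1.26 to 2.05) at 500 to 1000 kb and 0.652 (0.298 to 1.24) over 1000 kb. At 100 to 150 kb the values were 2.24 (1.90 to 2.63), 1.65 (1.28 to 2.08) and 0.435 (0.160 to 0.946). The classes of 300 to 500 and 500 to 1000 kb overlap in their counting intervals at both distances, and the longest class lies below them in its value. From 5 to 50 kb the longest class did not lie below the middle one, but it held few peaks there. Its density at 20 to 50 kb was 1.81 (1.01 to 2.99, 15 peaks) against 1.10 (0.730 to 1.59). At 10 to 20 kb the values were nearly equal, 1.45 (0.395 to 3.71, 4 peaks) against 1.41 (0.729 to 2.47). At 5 to 10 kb they were 3.62 (1.18 to 8.46, 5 peaks) against 1.88 (0.813 to 3.71). The counting intervals overlapped at each distance, so no order of these classes is shown. In intervals of 300 to 500 kb the values were 2.44 at 20 to 50 kb, 3.84 at 10 to 20 kb and 4.49 at 5 to 10 kb. Within 5 kb of CTCF the intervals over 1000 kb held 1 Smc1-only peak in 1.38 Mb, which gives a density anywhere from 0.0183 to 4.04 per Mb. The longest class was again the lowest there. The density was 6.35 (4.19 to 9.24) in intervals of 500 to 1000 kb and 8.68 (6.63 to 11.2) in those of 300 to 500 kb.

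**Figure D3:**
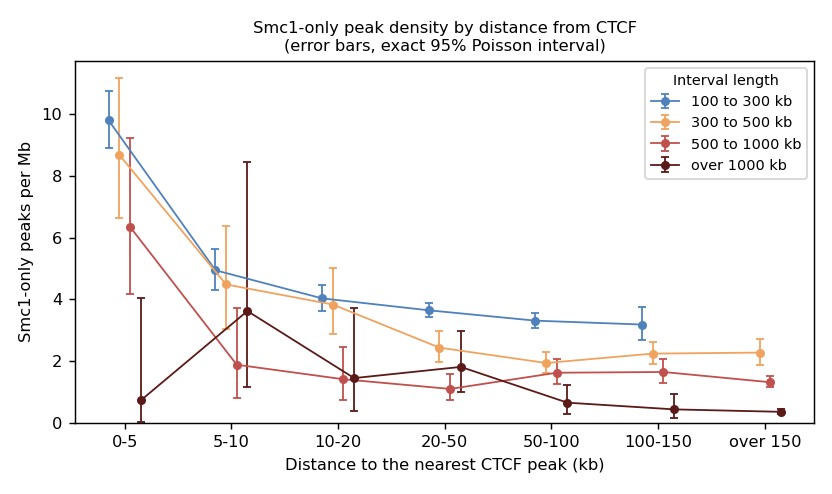
Smc1-only peaks per Mb (vertical axis) by distance to the nearest CTCF peak in kb (horizontal axis), for 4 classes of interval length (colours); error bars are exact 95% Poisson intervals. From 50 kb onward the class of 100 to 300 kb stays at 3.19 or above and the class over 1000 kb at 0.652 or below, while the bars are wide close to CTCF, where long intervals offer little DNA.

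Most intervals of any length had no Smc1 peak, and the long ones were empty less often than the shorter ones, which offer less room for a peak. Empty intervals numbered 712, or 56.8% (exact binomial 95% interval 54.0 to 59.5), and covered 468 Mb, against 86.4% empty among the 40636 shorter intervals. A single Smc1 peak was found in 279, 2 in 115, 3 in 63, and 4 or more in 85. These 85 held 505 of the 1203 Smc1 peaks, or 42.0%. Empty intervals were about as long as occupied ones, with medians of 466 and 459 kb. The share of empty intervals fell with length from 96.1% under 10 kb to 90.5% at 10 to 30 kb and 63.7% at 100 to 200 kb. Longer classes gave 56.2% at 200 to 300 kb, 55.9% at 300 to 500 kb, 56.0% at 500 to 1000 kb and 63.8% (55.2 to 71.8) over 1000 kb, although longer intervals offer more room for a peak. In 188 long intervals, or 15.0%, the Smc1-only density was at or above 4.66 per Mb, the pooled density of the shorter intervals. The 86.4% of shorter intervals without a Smc1 peak lay below that value themselves. The share of shorter intervals at or above it was not counted. The 15.0% therefore does not show that long intervals reached it less often.

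The longest intervals were mostly empty. The longest was chr7:39052473-46772962, of 7720 kb, with 0 Smc1 peaks where the density of the shorter intervals would give 35.9. A count of 0 allows up to 0.389 peaks per Mb there, taken as 3 peaks over its length and not as an exact Poisson bound. All intervals over 1000 kb together, this one among them, held 0.464 Smc1-only peaks per Mb. The length of this interval was not corrected for assembly gaps either. The next was chr7:7252654-13459673, of 6207 kb, also with 0 against 28.9. Then came chr1:25884020-30201957, of 4318 kb, and chr7:20649763-24938370, of 4289 kb, both with 0. Chromosome 7 thus held 3 of the 4 longest intervals.

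Of the 10 longest intervals, 8 were empty and 2 had a single Smc1 peak. In chr11:12711702-16161213, of 3450 kb, the Smc1 peak chr11:16157440-16157710 scored 92.4 and lay 3.64 kb from the CTCF peak at the right edge. In chr10:46418145-49508348, of 3090 kb, the peak chr10:49239582-49239965 scored 129 and lay 269 kb from CTCF. The other empty ones of the 10 were chr12:21840647-25147029 (3306 kb), chr14:81245817-84344092 (3098 kb), chr13:86378096-89474127 (3096 kb) and chr14:107165560-110239608 (3074 kb). The 10 longest empty intervals also included chr2:174762595-177792995 (3030 kb) and chr17:37445763-40253923 (2808 kb).

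The longest interval of every other autosome was shorter than these. It measured 2787 kb on chromosome 3 (chr3:10685613-13472864), with 3 Smc1 peaks of which the highest scored 217. It measured 2599 kb on chromosome 5, 2445 kb on chromosome 8, 1895 kb on chromosome 4, 1809 kb on chromosome 6, 1726 kb on chromosome 18 and 1289 kb on chromosome 9, each with 0 Smc1 peaks. On chromosomes 16, 15 and 19 the longest interval, of 1974, 1769 and 998 kb, had 1 Smc1 peak each, with scores of 110, 93.9 and 107. These single peaks scored between the lower quartile, 93.6, and the median, 115, of Smc1-only peaks in the long intervals. The lowest score in the Smc1 list was 80.

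At the other end, a few long intervals held groups of Smc1 peaks. The most were in chr13:4776403-5891939, of 1116 kb, with 17 Smc1 peaks and none of them on a CTCF peak. Its first Smc1 peak lay 472 kb from the left edge, so that stretch of the interval was empty, and 13 of the 17 lay within 100 kb of each other near the right edge. The highest, chr13:5869596-5871355, scored 1289 and was 21.5 kb from the nearest CTCF peak. The scores of the 17 ran from 80.9 to 1289, with a median of 157.

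Chr18:54606798-55152493, of 546 kb, held 12 Smc1 peaks, of which 7 lay within 100 kb of each other. Its right-hand group had the highest peak, with a score of 320, at 4.88 kb from CTCF. Chr10:36857212-37988930, of 1132 kb, also held 12, but spread from its left edge to 657 kb with a median spacing of 53.9 kb. The highest of these, with a score of 817, overlapped the CTCF peak at the left edge. Chr10:16357208-17278506, of 921 kb, held 11, and its highest peak scored 469 at 211 kb from CTCF.

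Chr3:20554662-22008584, of 1454 kb, held 11 Smc1 peaks, with an empty stretch of 606 kb between neighbours. Its peak chr3:21834319-21835400 had the highest score of all Smc1-only peaks in the long intervals, 1403, at 174 kb from CTCF. The densest of these intervals was chr8:35548487-35871861, with 10 Smc1 peaks in 323 kb, or 30.9 per Mb. It has 3 of them within 5 kb of the right edge, and the highest scored 557. Chr1:62014103-62626724, of 613 kb, and chr18:5162350-5819853, of 658 kb, held 10 each, and chr6:100077668-100477983, of 400 kb, and chr14:58845107-59282712, of 438 kb, held 9 each. The map of these intervals shows groups at an edge in some and scattered peaks in others.

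**Figure D4:**
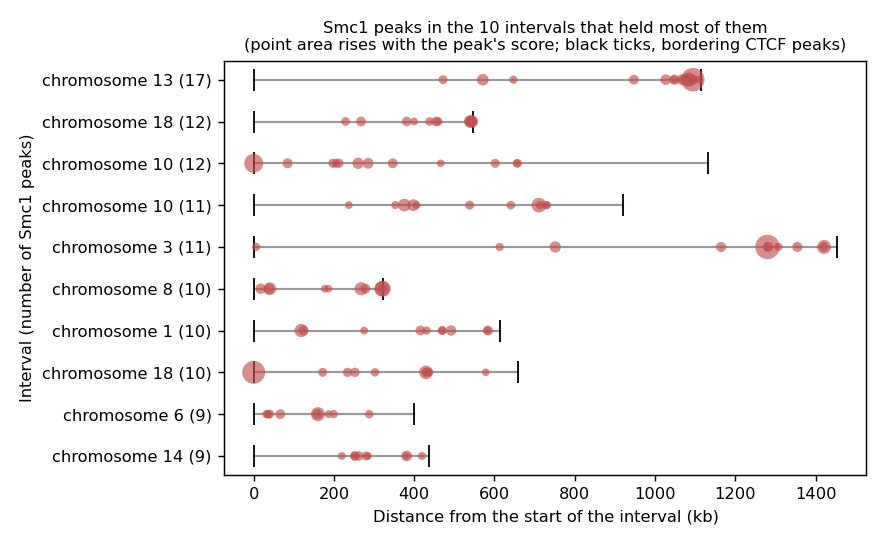
Smc1 peaks (points, area rising with the score) along the 10 long intervals that held most of them, by distance from the start of the interval in kb (horizontal axis); black ticks are the bordering CTCF peaks. On chromosome 13, 13 of 17 peaks lie within 100 kb near the right edge, while on chromosome 10 the 12 peaks spread over 657 kb.

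The 5 Smc1 peaks of highest score in the long intervals fell into 2 kinds. Peaks chr9:85220451-85222454 (score 1589), chr8:67026687-67027696 (1340) and chr18:5161893-5162852 (1226) overlapped a bordering CTCF peak, with midpoints 0.389, 0.132 and 0.0230 kb inside the interval. The peaks of chromosomes 3 and 13 named above overlapped none. Smc1-only peaks scored close to each other inside and outside the long intervals. The median score was 115 (quartiles 93.6 and 159) in the long intervals and 113 (93.8 and 151) in the shorter ones, and 14.7% and 11.8% scored 200 or more. Median widths were 372 and 400 bp. Both groups scored well below Smc1 peaks on CTCF, whose median was 300 at CTCF peaks that border a long interval and 323 at other CTCF peaks.

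Smc1-only peaks of the long intervals often had a neighbour. Another Smc1-only peak of the same interval lay within 20 kb of 29.4% of them (26.8 to 32.1) and within 50 kb of 42.4% (39.6 to 45.3). In intervals of 100 to 300 kb, where Smc1-only peaks stood at 4.01 per Mb, the shares were 31.6% (29.9 to 33.3) and 47.1% (45.3 to 49.0).

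The CTCF peaks at the edges were then compared with the other CTCF peaks of the autosomes. The long intervals were bordered by 2252 CTCF peaks, 256 of which had a long interval on both sides. Of the 2252, 1656 overlapped a Smc1 peak, or 73.5% (71.7 to 75.3), against 67.3% (66.8 to 67.8) of the other 39657. The difference was 6.24 percentage points (95% interval 4.32 to 8.08) and had the same direction in 18 of 19 autosomes. Chromosome 18 was the exception, with 67.5% and 70.4%. The difference was smaller against CTCF peaks bordering intervals of 100 to 300 kb, at 2.71 points (0.583 to 4.78). With Smc1 peaks scoring 200 or more it was 2.40 points (0.279 to 4.52).

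Bordering CTCF peaks scored lower than the others, with a median of 213 against 269, and were narrower, 388 against 446 bp. Stronger CTCF peaks carried Smc1 more often, so the shares were also compared within 4 classes of CTCF score that each held the same number of autosomal peaks. In the lowest class 42.6% (38.8 to 46.5) of bordering CTCF peaks carried Smc1, and 27.5% (26.6 to 28.4) of others. In the second class the shares were 72.2% (68.6 to 75.6) and 55.9% (54.9 to 56.9), and in the third 95.3% (93.2 to 96.9) and 86.6% (85.9 to 87.3). In the highest class they were 98.7% (96.9 to 99.6) and 98.0% (97.8 to 98.3), which overlap. The mean difference over the 4 classes was 10.2 points, larger than over all peaks together.

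The share of CTCF peaks with Smc1 did not grow steadily with the length of the longer flanking interval. It was 68.7% under 10 kb, 64.9% at 10 to 30 kb and 66.9% at 30 to 100 kb. The next classes gave 71.0% (69.7 to 72.2) at 100 to 200 kb and 70.4% (68.2 to 72.5) at 200 to 300 kb. Above these it was 75.4% (72.9 to 77.8) at 300 to 500 kb, 72.2% (68.8 to 75.3) at 500 to 1000 kb and 68.9% (63.0 to 74.4) over 1000 kb. The median CTCF score was 310 under 10 kb, 245 at 100 to 200 kb and 204 over 1000 kb. These shares were not compared at like scores. CTCF peaks with a long interval on both sides had a median score of 165 and carried Smc1 in 68.4% (62.3 to 74.0). Those with a long interval on one side had a median score of 218 and carried Smc1 in 74.2% (72.2 to 76.1). Within the 4 classes of CTCF score, from lowest to highest, the shares were 41.4% and 42.8%, 71.8% and 72.3%, 100% and 94.9%, and 96.6% and 98.8%. Their intervals overlapped in each class, so the lower share was not seen at like scores. Seen by interval, Smc1 was at both bordering CTCF peaks in 665 intervals, at one in 501 and at neither in 88.

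Long intervals tended to adjoin. Of their ends, 20.4% met another long interval across a single CTCF peak, although long intervals made up 2.99% of all intervals. This is a description of the CTCF list that also chose the intervals. There were 180 runs of 2 or more neighbouring long intervals, of which 123 had 2 and 43 had 3. The longest run, chr1:100645780-105659277, had 7 long intervals over 5.01 Mb, with 6 CTCF peaks inside it, 4 of them with Smc1, and 0 Smc1 peaks in the intervals themselves. The run chr14:89904156-93686808 had 5 long intervals over 3.78 Mb, with 2 Smc1 peaks in them, and 3 of its 4 inner CTCF peaks carried Smc1. The run chr12:41850217-44914590 had 5 over 3.06 Mb, with 1 Smc1 peak, and again 3 of 4 inner CTCF peaks carried Smc1.

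Smc1 showed long empty stretches in much the same places. There were 1193 intervals of at least 300 kb without a Smc1 peak, covering 771 Mb. They shared 657 Mb with the intervals without CTCF, which is 83.9% of the CTCF-free length and 85.2% of the Smc1-free length. These shares follow in part from the overlap of the peak lists themselves.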

How the data were processed

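NPC chromatin was sequenced after immunoprecipitation of CTCF or Smc1, 1 library per factor. Per the submitters' processing notes Bowtie and mm9 were used, and MACS is named in the peaks of the deposited lists. The deposited lists give a position and a score per peak, with 80 as the lowest score. The use of the input is not stated, and read depth is unknown. Peak numbers run without a break in both lists. Positions are printed counting from 1.

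Intervals, overlaps and densities were computed with Python 3.11.15, pandas 2.3.3 and scipy 1.17.1. Densities have exact Poisson intervals, density ratios exact conditional binomial, shares Clopper-Pearson and differences of shares Newcombe intervals, all at 95% and for counting error only. The calculation of density ratios was run on simulated peaks placed at random at known densities. This checks the arithmetic of the ratio only. It does not cover the uneven spread of the real peaks or the width of the intervals given. A planned Fisher's exact test over peaks was left out, since peaks are not replicates. Intervals named are the 10 longest, the 10 with most Smc1 peaks, the 10 longest empty ones, the longest of each autosome and 5 on each side of 300 kb. Smc1 peaks named are the 5 highest and the highest of a named interval. Alternatives varied the interval length, score thresholds, overlap and counting rules and the autosomes included. The intervals and tests were chosen with earlier results of these data known. The 5C contacts have no chromosome coordinates and were not used here, and no sequence was printed, since no mm9 genome was used.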

Additional observations from a re-analysis of the deposited data

How the results depend on the processing

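In none of the alternatives run did the Smc1-only ratio or the Smc1-all ratio pass 1, or the difference at bordering CTCF peaks pass 0. The Smc1-only density ratio of 0.326 was 0.416, 0.235 and 0.117 with intervals of at least 200, 500 and 1000 kb. Each was taken against all intervals shorter than that length, so the comparator changed too. With CTCF scores of at least 100 and 200 it was 0.369 and 0.423. There, Smc1 peaks on CTCF peaks of lower score also counted as Smc1-only. The ratio was 0.407 with Smc1 scores of at least 200 and 0.379 against intervals of 100 to 300 kb. With no CTCF peak within 1 and 10 kb it was 0.360 and 0.373. For 1 kb only the peaks were dropped and the lengths kept whole, while for 10 kb the lengths were trimmed too. In settings chosen after seeing the data the ratio was 0.422 for intervals of 300 to 1000 kb and 0.537 at 50 to 150 kb from CTCF. Within 5 kb, also chosen after seeing the data, it was 0.933 against all shorter intervals, where its interval includes 1. Leaving out each autosome in turn gave 0.316 to 0.339.

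The ratio for all Smc1 peaks, 0.0695, was 0.0800, 0.0532 and 0.0275 at 200, 500 and 1000 kb, each against the rest of the span at that length. It was 0.0850 and 0.140 with CTCF scores of at least 100 and 200, and 0.0531 and 0.0193 with Smc1 scores of at least 100 and 200. The 1254 intervals became 2300, 563 and 138 at 200, 500 and 1000 kb, and 1331 and 1622 with CTCF scores of at least 100 and 200. Empty intervals rose from 56.8% to 67.4% and 89.4% with Smc1 scores of at least 100 and 200. The difference at bordering CTCF peaks, 6.24 points, was 2.40 with Smc1 scores of at least 200, 3.77 with intervals of at least 500 kb, 2.71 against peaks bordering 100 to 300 kb and, added after seeing the data, 10.2 as a mean over 4 classes of CTCF score. Without each autosome in turn, also added after seeing the data, it was 5.53 to 6.64.

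No paired analysis was possible because CTCF and Smc1 had 1 library each and the numbered 5C libraries were not used here. Correcting lengths for assembly gaps was not run, since no mm9 genome was used. With 1 library per factor and unknown read depth, an empty interval cannot be told from one with binding below the authors' threshold.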

Other observations

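Chromosome X, outside the choice of autosomes, had 112 intervals of at least 300 kb without a CTCF peak. They covered 105 Mb, or 65.1% of its span, a share above the highest autosome, chromosome 3, at 39.5%. The X intervals held 55 Smc1-only peaks at 0.524 per Mb, and its shorter intervals 101 at 1.81 per Mb, a ratio of 0.290 (exact 95% interval 0.205 to 0.406). The autosomal median was 4.53 Smc1-only peaks per Mb in shorter intervals. The V6.5 line is male, with a single X chromosome, and any part of copy number in these values was not tested. Of the X intervals, 69.6% had no Smc1 peak. The longest was chrX:22905695-33353117, of 10447 kb, with 1 Smc1 peak.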
